A study of Mus musculus with 78 samples.

Results

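Brains of inbred mice labelled as 14-3-3 epsilon knockouts were compared with those of inbred wild-type mice on the day of birth. The members were chosen by label as the 3 brain arrays titled epsilon129s6 (14-3-3 ko/ko, inbred background) and the 3 titled WT129s6 (wild type, inbred background) at P0, which is 6 of 78 arrays in the series. Each array holds total RNA from brain, biotin-labelled and hybridised to an Affymetrix mouse array that reads 45101 probe sets, and the labels call the 3 arrays of a group biological replicates. The other inbred group at P0 has 3 arrays labelled Ndel ko/+, and all 9 inbred arrays carry the same inbred strain in their titles. The remaining P0 arrays come from Lis1, Ndel and Dcx mutants and from wild types on 2 mixed backgrounds, and entered the fit so that all 30 P0 arrays shared 1 estimate of the spread. The labels give no brain region, no sex, no pooling and no description of the knockout allele.

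14-3-3 proteins are small acidic dimers that bind other proteins at phosphorylated serines and threonines, and so hold their partners in place or shield them from phosphatases. In neurons, 14-3-3 epsilon binds NDEL1 after CDK5 has phosphorylated it, and NDEL1 in turn works with LIS1 on the motor protein dynein during neuronal migration. In people, the gene for 14-3-3 epsilon is lost together with that for LIS1 in Miller-Dieker syndrome, a severe malformation of the cortex.

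The targeted transcript was strongly reduced in every knockout brain. Ywhae, the gene of 14-3-3 epsilon on chromosome 11, had log2 signals of 10.04, 9.72 and 9.74 in 14-3-3 epsilon ko/ko brains, against 12.71, 12.80 and 12.74 in inbred wild-type brains (probe set 1438839_a_at, the brightest of its probe sets). The groups lay far apart, and the 27 other P0 arrays all fell between 12.64 and 12.91. The difference was -2.92 ± 0.06 on the log2 scale (SE of the limma fit), with a 95% interval from -3.05 to -2.78 and an adjusted p of 1.44e-22. The wild-type signal was thus 7.55 times the knockout signal. The other 3 Ywhae probe sets gave the same direction. Probe set 1426384_a_at read 8.15, 7.85 and 7.74 in knockout brains, against 11.11, 11.22 and 11.15 in wild-type brains. Probe set 1426385_x_at differed by -2.87 and 1435702_s_at by -2.86. A signal remained in the knockout brains on all 4 probe sets, and what it measures was not tested. The sources used here do not say where the probes lie relative to the deleted part of the gene.

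**Figure D1:**
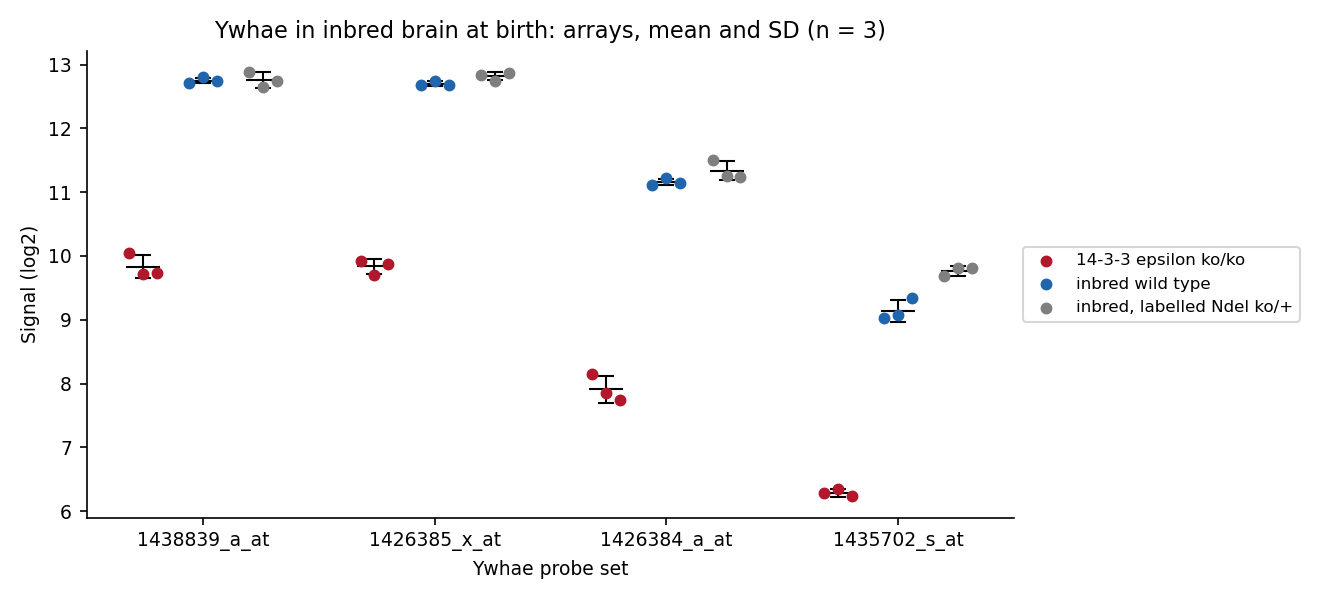
Log2 signal of the 4 Ywhae probe sets (horizontal axis) in each inbred P0 array: red, 14-3-3 epsilon ko/ko; blue, wild type; grey, libraries labelled Ndel ko/+. Dashes and bars are the mean and SD of 3 arrays. On every probe set the 3 knockout arrays lie below all others, with differences of -2.86 to -3.25 log2 units against wild type.

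Most readings of array quality overlapped between the groups, while transcripts kept in the nucleus were higher in 2 of 3 knockout arrays. Correlations between replicates within the knockout group and within the inbred wild-type group ran between 0.9833 and 0.9912 over the genes tested. The median SD of a gene was 0.139 in knockout and 0.141 in wild-type brains. The beta-actin probe sets differed between their 3′ and 5′ ends by 0.157 to 0.212 in knockout arrays and by 0.122 to 0.209 in wild-type arrays. Stmn2, a microtubule regulator of growing neurons, read 12.96, 12.94 and 13.00 in knockout brains, against 12.96, 13.04 and 12.97 in wild-type brains, which fits the label of brain tissue. Xist, the transcript of the inactive X chromosome, lay between 4.33 and 4.49 in knockout arrays and between 4.31 and 4.75 in wild-type arrays, and the Y-linked Eif2s3y between 8.39 and 8.55 in knockout and between 8.29 and 8.95 in wild-type arrays. A list of 8 long noncoding transcripts kept in the nucleus, such as Malat1 and Miat, had mean levels of 8.53, 7.81 and 8.40 in knockout arrays, against 8.003, 8.16 and 7.67 in wild-type arrays. Of its members 6 were higher and 2 lower in the knockout, with a median difference of 0.44, and 0 were called, beside 0.0255% of all genes. On the first principal component of the 9 inbred arrays, which held 29.6% of the variance, the knockout arrays lay at 15.2, 2.75 and 13.9, against -5.63, 5.02 and -10.6 for the wild-type arrays. Knockout replicates 1 and 3 were thus the highest arrays on both measures within these 6, and their part in the differences of the gene lists was not tested.

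Beyond Ywhae, 2 of the genes tested passed the threshold. Of 11779 genes, 3 were called at an adjusted p under 0.05 (limma, Benjamini-Hochberg), which is 0.0255%: Cpa3 and Cma1 were higher and Ywhae was lower in the knockout. The next gene stood at an adjusted p of 0.173. At an unadjusted p under 0.05 there were 1161 genes, 316 higher and 845 lower in the knockout. The direction leaned downward over all genes, since 60% were lower in the knockout and the median difference was -0.04. All 3 knockout arrays lay above all 3 wild-type arrays for 422 genes (3.58%) and below them for 960 genes (8.15%).

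The intervals, each taken for its gene alone, give the range of differences that the data allow for that gene. They do not hold for all genes at once, and genes below the filter have none. The 95% interval lay within a 2-fold change either way for 11641 genes (98.8%) and within a 1.5-fold change for 10280 genes (87.3%). The middle of the distribution was narrow, with the 5th percentile of the difference at -0.30 and the 95th at 0.23 log2 units, and 6 genes differed by more than 1 log2 unit.

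**Figure D2:**
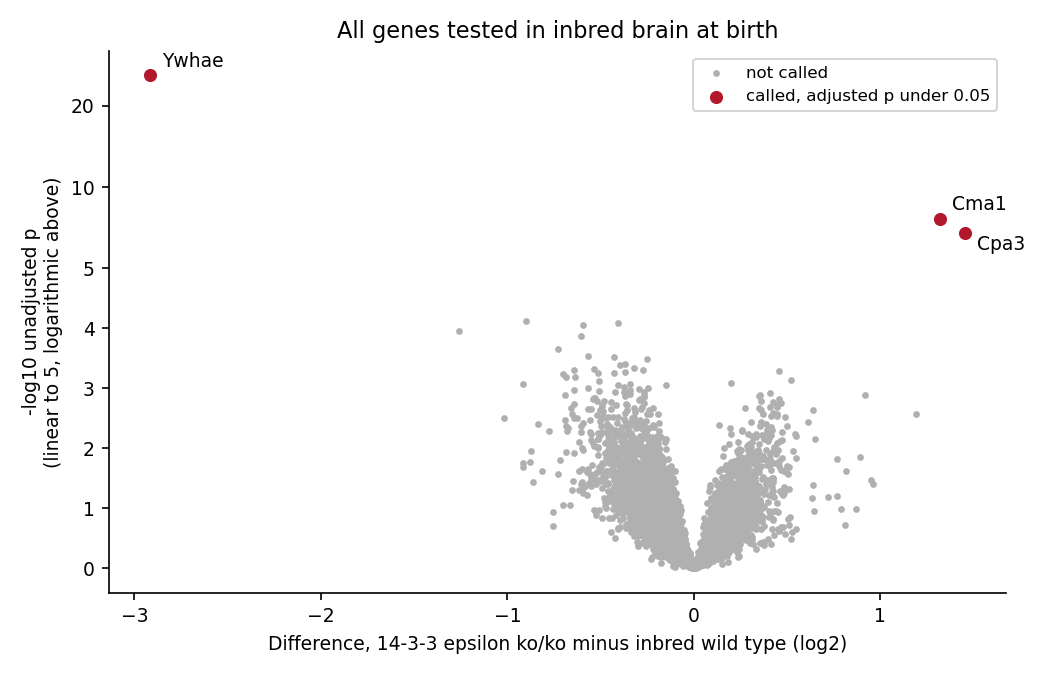
Each of the 11779 tested genes by its difference, 14-3-3 epsilon ko/ko minus inbred wild type in log2 units (horizontal axis), and by -log10 of its unadjusted p (vertical axis, linear to 5 and logarithmic above). Ywhae at -2.92, Cma1 at 1.32 and Cpa3 at 1.45 stand apart in red, and the genes in grey were not called.

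Both genes that rose encode proteases stored in the granules of mast cells, which are immune cells of the meninges and other tissues that release histamine and enzymes. Cma1, mast cell chymase on chromosome 14, had log2 signals of 5.36, 6.11 and 5.59 in knockout brains, against 4.47, 4.19 and 4.45 in wild-type brains (probe set 1449456_a_at). The groups did not overlap, and the lowest knockout array stood above all 75 arrays of other groups. The difference was 1.32 ± 0.17 (SE), with a 95% interval from 0.97 to 1.66, a 2.49-fold higher signal and an adjusted p of 0.00014 (limma). Cpa3, mast cell carboxypeptidase A on chromosome 3, had 5.24, 6.03 and 5.59 in knockout brains, against 4.06, 4.02 and 4.42 in wild-type brains (probe set 1448730_at). Here too the groups lay apart, and knockout replicate 2 was the highest array for both genes. The difference was 1.45 ± 0.21 (SE), with a 95% interval from 1.03 to 1.88, a 2.74-fold higher signal and an adjusted p of 0.000719 (limma). Both signals were low: each gene reached the filter at 5.253 log2 units only through the knockout group. In tissue RNA, more cells of a type and more RNA per cell cannot be told apart.

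The promoter windows of these genes are shown because both transcripts belong to the same cell type and rose together. RefSeq (GRCm38.p6) gives 300 bases for each, 250 before and 50 after the start of the gene, 5′ to 3′ on the gene's strand. Capitals mark GATA on either strand, the core letters that GATA factors bind, and AGATAA, which contains it.
Cma1 promoter, chr14:55944626-55944925, minus strand: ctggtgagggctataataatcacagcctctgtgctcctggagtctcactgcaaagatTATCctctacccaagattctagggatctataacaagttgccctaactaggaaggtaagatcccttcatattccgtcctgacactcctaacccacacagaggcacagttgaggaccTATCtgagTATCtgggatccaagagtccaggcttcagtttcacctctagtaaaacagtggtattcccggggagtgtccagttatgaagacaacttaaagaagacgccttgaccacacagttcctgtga
Cpa3 promoter, chr3:20242132-20242431, minus strand: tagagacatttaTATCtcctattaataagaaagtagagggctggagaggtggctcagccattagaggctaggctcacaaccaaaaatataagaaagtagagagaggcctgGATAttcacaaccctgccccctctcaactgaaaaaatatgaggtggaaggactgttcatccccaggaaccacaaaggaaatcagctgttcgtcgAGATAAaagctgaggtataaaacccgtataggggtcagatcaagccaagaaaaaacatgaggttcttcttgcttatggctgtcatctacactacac

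The Cma1 window held GATA at bases 58, 173 and 181, all on the opposite strand. The Cpa3 window held it at bases 13, 111 and 206, and the last of these is part of AGATAA at base 205. GATA was found in 57.9% and AGATAA in 11.2% of 32851 such windows of the mouse genome. CATGTG, an E-box that MITF binds, was found in neither window and in 14.2% of all windows. These letters were searched after the expression values were known, on both strands, and a match is not a shown binding site.

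No other group of the series reached these levels. Over the 27 other P0 arrays, Cma1 ran between 3.72 and 4.87 and Cpa3 between 3.61 and 4.85. The 24 arrays at E14 reached 3.999 for Cma1 and 4.08 for Cpa3, and the 24 at P14 reached 4.38 and 4.14. Among the E14 arrays, 3 are labelled 14-3-3 ko/ko, and their Ywhae signals were 12.68, 12.92 and 9.97, so that 2 of the 3 went against the label. The library with low Ywhae read 3.96 for Cma1 and 3.84 for Cpa3. Levels across ages are set side by side only as a description, since no test was made between ages.

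**Figure D3:**
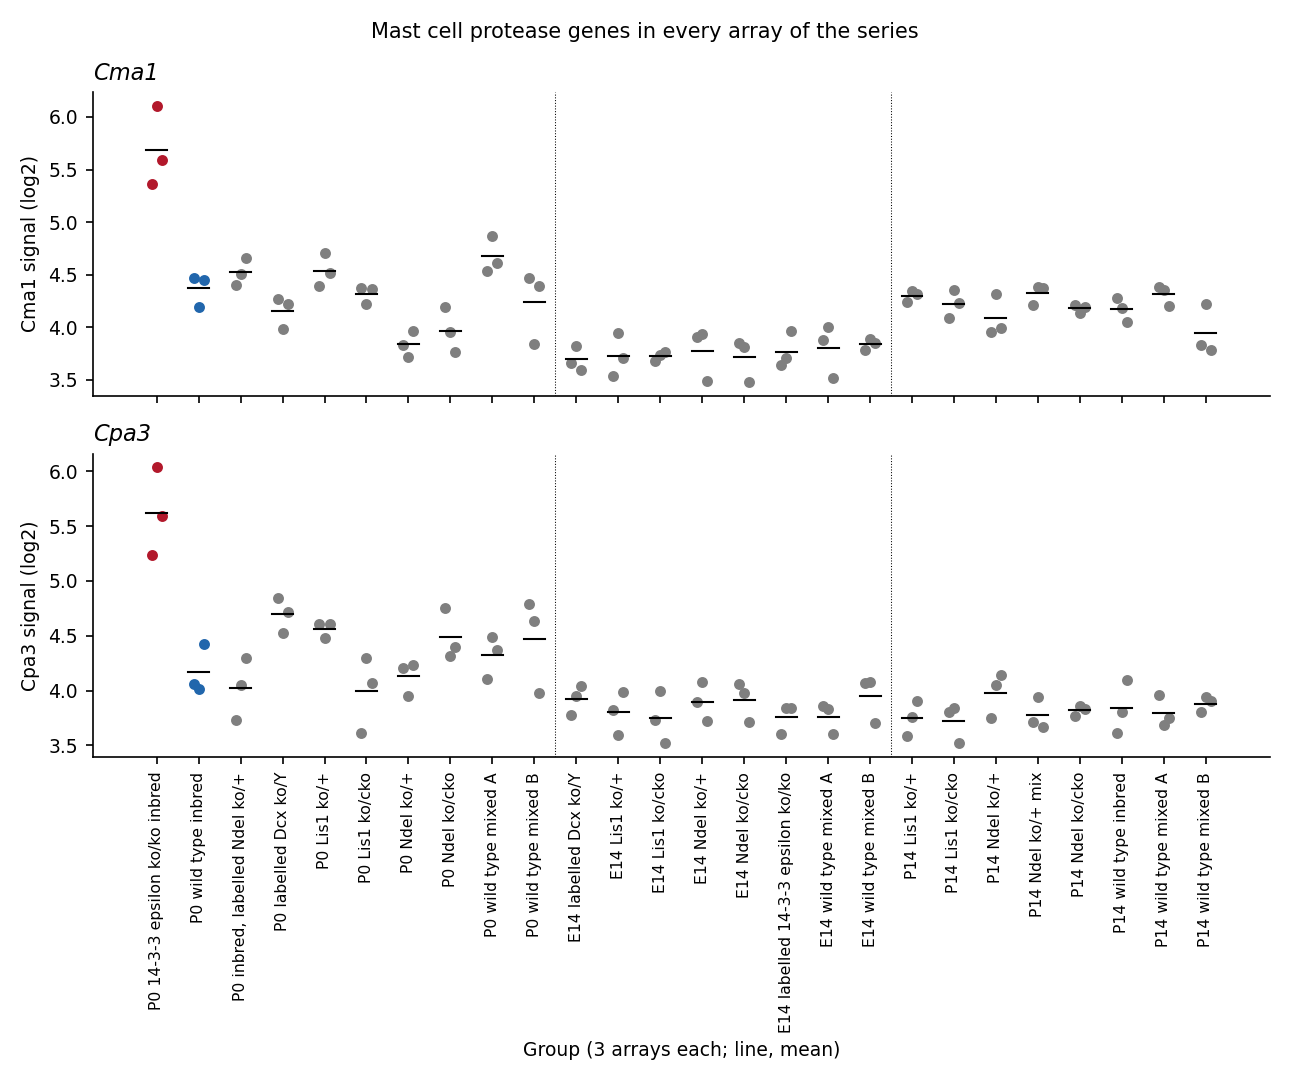
Log2 signal of Cma1 (top) and Cpa3 (bottom) in every array, by group along the horizontal axis, with dotted lines between P0, E14 and P14; points are arrays and lines are means of 3. The 3 inbred 14-3-3 epsilon ko/ko arrays (red, far left) read 5.36 to 6.11 and 5.24 to 6.03 and lie above every array of the other groups, inbred wild type in blue included.

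The wider set of mast cell genes gave few measurable members. A list of 20 genes was drawn up after the values of Cma1 and Cpa3 had been seen, of which 19 were on the arrays and 9 passed the filter, 2 of them only through the knockout group. Of the 9, 7 were higher and 2 lower in the knockout. The 7 include Cma1 and Cpa3, which were the 2 called. Slc18a2, the vesicular amine transporter, differed by 0.30, the granule proteoglycan Srgn by 0.26, the transcription factor Gata2 by 0.09, and Hdc, which makes histamine, by 0.05. The groups overlapped for each of these genes. In the fit over every probe set that names 1 gene, the 95% interval ran from -0.41 to 1.01 for Slc18a2 and from -0.14 to 0.65 for Srgn. The receptor Kit differed by -0.08, and it is also expressed in neurons. Whether the signal of Kit, Slc18a2, Srgn, Gata2 or Hdc comes from mast cells was not tested. Several other mast cell genes of the list stayed below the filter in both groups. Mcpt4, another chymase, averaged 4.55 ± 0.01 in knockout and 4.44 ± 0.03 in wild-type brains, the tryptase Tpsb2 4.85 ± 0.25 in knockout and 4.60 ± 0.29 in wild-type brains, and Fcer1a, part of the IgE receptor, 3.75 ± 0.04 in knockout and 3.73 ± 0.20 in wild-type brains (SD, n = 3 each).

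The other 14-3-3 genes stayed close to wild type. Ywhaz, the zeta form, read 12.76, 12.87 and 12.72 in knockout brains, against 12.67, 12.87 and 12.79 in wild-type brains. Ywhag, the gamma form, read 11.56, 11.53 and 11.37 in knockout brains, against 11.24, 11.48 and 11.58 in wild-type brains. The groups overlapped for all 5 paralogs tested, Ywhab, Ywhag, Ywhah, Ywhaq and Ywhaz. Their differences ran between -0.04 and 0.05, the lowest adjusted p was 0.782 (limma), and all 5 intervals lay within a 1.5-fold change. Sfn, the sigma form of epithelia, was below the filter, at 5.23 ± 0.38 in knockout and 5.23 ± 0.15 in wild-type brains (SD, n = 3 each).

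Genes beside Ywhae on chromosome 11 were not called either. The 8 tested genes on each side included Crk, an adaptor of tyrosine kinase signalling and the nearest on one side, and Doc2b, a calcium sensor of vesicle release and the nearest on the other. Crk read 10.39, 10.27 and 10.13 in knockout brains, against 10.28, 10.16 and 10.51 in wild-type brains, and the groups overlapped. Over the 16 neighbours the differences ran from -0.24 for Tlcd3a to 0.17 for Slc43a2, with a lowest adjusted p of 0.477. The knockout arrays lay below the wild-type arrays for 1 of the 16 neighbours, beside 8.15% of all genes. That neighbour was Inpp5k, an inositol phosphatase, which read 8.44, 8.59 and 8.69 in knockout brains, against 8.75, 8.69 and 8.89 in wild-type brains.

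**Figure D4:**
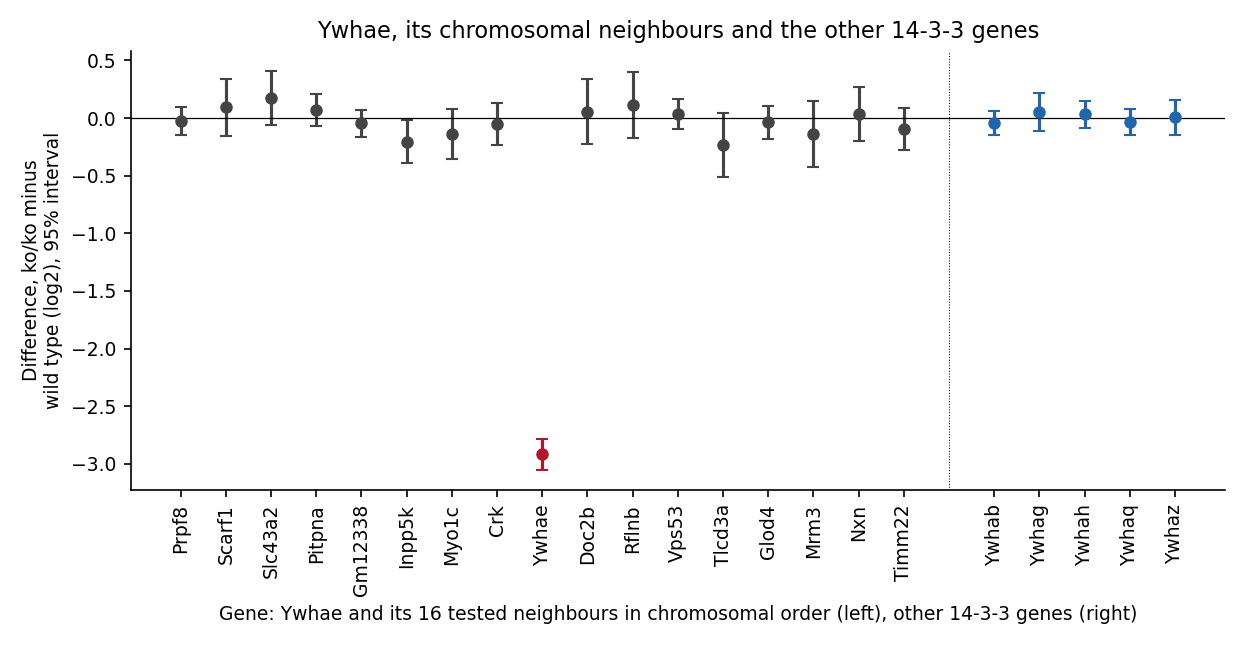
Difference in log2 units, 14-3-3 epsilon ko/ko minus inbred wild type, with its 95% interval, for Ywhae (red), its 16 tested neighbours in chromosomal order (dark grey) and the 5 other 14-3-3 genes tested (blue). Ywhae lies at -2.92, the neighbours between -0.24 and 0.17 and the paralogs between -0.04 and 0.05.

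The partners of 14-3-3 epsilon in the LIS1 complex were not called. Pafah1b1, the gene of LIS1, read 10.32, 10.51 and 10.61 in knockout brains, against 10.48, 10.63 and 10.18 in wild-type brains. Ndel1 read 9.70, 9.87 and 9.97 in knockout brains, against 9.93, 9.82 and 9.99 in wild-type brains. Both overlapped between groups, with differences of 0.05 and -0.06. Of 24 tested genes of the LIS1 complex, dynein and dynactin, 12 were higher and 12 lower, the median was 0.00, and 0 were called, beside 0.0255% of all genes. The lowest value was that of Dctn6, a dynactin subunit, which read 9.10, 9.24 and 8.91 in knockout brains, against 9.29, 9.28 and 9.82 in wild-type brains, a difference of -0.38 with an adjusted p of 0.394.

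Genes of neuronal migration gave the same count. Of 36 tested, 26 were higher and 10 lower, with a median of 0.04 beside -0.04 for all genes. Of these 36, 0 were called, beside 0.0255% of all genes. Centring each array on its median turned that split into 20 higher and 16 lower. Cdk5, the kinase that prepares NDEL1 for 14-3-3 epsilon, read 9.74, 9.86 and 9.78 in knockout brains, against 9.99, 10.04 and 10.30 in wild-type brains. The groups did not overlap, but the difference of -0.32 ± 0.08 (SE) had an adjusted p of 0.301, and the inbred libraries labelled Ndel ko/+ read 9.80, 9.90 and 9.82. Dcx, the microtubule protein doublecortin, differed by 0.21 with overlapping groups, and Reln, the secreted guide of cortical layering, by 0.13. Of 32 tested genes whose proteins are known 14-3-3 clients, 18 were higher and 14 lower (12 and 20 after centring), 0 were called, and 31 intervals lay within a 1.5-fold change. They ran from -0.21 for Bad, a promoter of apoptosis, to 0.20 for Cdkn1b, an inhibitor of the cell cycle.

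Markers of the cells that line the ventricles were lower than in wild type, without a call against it. All 9 tested genes of ependyma and motile cilia were lower in the knockout, with a median of -0.46 beside -0.04 for all genes. Their mean level ran between 5.32 and 5.70 in knockout arrays and between 5.97 and 6.11 in wild-type arrays. Other P0 arrays overlapped the knockout range: the inbred libraries labelled Ndel ko/+ ran from 5.69 to 6.18 and the Ndel cko/ko mutants from 5.51 to 5.82. Dynlrb2, a dynein light chain of ciliated cells, read 5.03, 5.40 and 5.66 in knockout brains, against 6.63, 6.56 and 6.67 in wild-type brains. The groups lay apart, but the difference of -1.26 ± 0.28 (SE) had an adjusted p of 0.191 in the fit over all P0 arrays. Against the inbred libraries labelled Ndel ko/+, Dynlrb2 differed by -1.09 with an adjusted p of 0.0474 (limma). Cfap126, a protein of the ciliary axoneme, read 5.50, 5.95 and 5.84 in knockout brains, against 6.37, 6.39 and 6.40 in wild-type brains, with an adjusted p of 0.324. Foxj1, the master regulator of motile cilia, overlapped between groups at 4.95, 5.22 and 5.40 in knockout brains, against 5.19, 5.42 and 5.59 in wild-type brains. In the ranking of all genes by p, the first gene that was not called was Spa17, a protein of sperm and cilia chosen here after its values were seen. It read 4.85, 4.71 and 4.70 in knockout brains, against 5.92, 5.58 and 5.47 in wild-type brains, a difference of -0.90 with an adjusted p of 0.173.

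Choroid plexus genes varied more within the knockout group than between the groups. All 10 tested were lower on average, beside 60% of all genes, with a median of -0.64, and 0 were called, beside 0.0255% of all genes. Ttr, the thyroid hormone carrier secreted by the choroid plexus, read 10.50, 13.05 and 13.06 in knockout brains, against 13.26, 13.19 and 12.92 in wild-type brains. Knockout replicate 1 alone was low. The mean level of the list was 5.36, 6.33 and 6.22 in the knockout arrays, against 6.74, 6.54 and 6.33 in the wild-type arrays. Other P0 arrays overlapped the knockout range here too. The list ran from 6.04 to 6.81 in the inbred libraries labelled Ndel ko/+ and from 5.97 to 6.27 in the other Ndel ko/+ arrays. In the Ndel cko/ko mutants it ran from 5.67 to 6.64. Knockout replicate 1 was also the array with the lowest ependymal level, 5.32, and the part of the dissection in either list was not tested.

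Astrocyte, microglial and vascular lists were lower by smaller amounts, and oligodendrocyte precursors were not. Of 16 astrocyte genes tested, 15 were lower, beside 60% of all genes, with a median of -0.21. For 6 of the 16, the knockout arrays lay below the wild-type arrays, beside 8.15% of all genes. Of the 16, 0 were called, beside 0.0255% of all genes. The mean level of the astrocyte list lay between 8.36 and 8.54 in knockout arrays and between 8.63 and 8.71 in wild-type arrays. It ran from 8.37 to 8.81 in the inbred libraries labelled Ndel ko/+ and from 8.11 to 8.29 in the P0 Ndel cko/ko mutants. Clu, a secreted chaperone, read 9.74, 10.17 and 10.05 in knockout brains, against 10.49, 10.39 and 10.29 in wild-type brains, and the groups did not overlap. Slc1a3, the glutamate transporter of astrocytes, read 9.65, 9.68 and 9.73 in knockout brains, against 9.85, 9.91 and 10.00 in wild-type brains. Of 16 microglial genes, 14 were lower with a median of -0.21, and of 18 genes of endothelium and mural cells, 14 were lower with a median of -0.13. In each of these lists, 3 genes were lower without overlap of the arrays. Of 8 genes of oligodendrocyte precursors, 4 were higher and 4 lower with a median of 0.00, from -0.34 for Gpr17 to 0.30 for Sox8. Cd68, a lysosomal protein of macrophages, read 4.73, 4.67 and 4.87 in knockout brains, against 5.77, 5.09 and 5.35 in wild-type brains, with an adjusted p of 0.301. Slco1a4, a transporter of the blood-brain barrier, read 5.92, 6.26 and 5.89 in knockout brains, against 6.60, 6.87 and 6.80 in wild-type brains, with an adjusted p of 0.286. Neither gene was called, though its arrays did not overlap.

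Neuronal lists had no common direction. Of 31 axon guidance genes tested, 22 were higher, with a median of 0.10, and all 6 whose arrays did not overlap were higher in the knockout, beside 3.58% of all genes. Cntn2, an adhesion protein of growing axons, read 9.95, 10.03 and 9.85 in knockout brains, against 9.43, 9.63 and 9.35 in wild-type brains, a difference of 0.47 ± 0.16 (SE) with an adjusted p of 0.35. Slit1, a repellent ligand, read 8.12, 7.96 and 8.12 in knockout brains, against 7.51, 7.88 and 7.75 in wild-type brains. Of 12 markers of upper-layer cortical neurons, 8 were higher, with a median of 0.16. Rorb, a nuclear receptor of layer IV, read 7.75, 7.97 and 7.74 in knockout brains, against 7.03, 7.64 and 6.84 in wild-type brains, and Pou3f2, a transcription factor of upper layers, 8.05, 8.07 and 8.20 in knockout brains, against 7.38, 7.97 and 7.33 in wild-type brains. Both were higher in every knockout array than in any wild-type array, and in both, wild-type replicate 2 lay nearest to the knockout. Of 12 striatal genes, 4 were higher and 8 lower, with a median of -0.15. The arrays did not overlap for 3 that were higher and 2 that were lower, beside 3.58% and 8.15% of all genes. Penk, the enkephalin precursor, read 7.92, 7.71 and 8.04 in knockout brains, against 8.50, 8.29 and 8.54 in wild-type brains, with an adjusted p of 0.351. Ebf1, a transcription factor of striatal neurons, read 7.23, 7.33 and 7.06 in knockout brains, against 6.91, 6.89 and 6.56 in wild-type brains, with an adjusted p of 0.337. Of 29 genes of synapses, 11 were higher and 18 lower with a median of -0.03, and of 16 genes of GABAergic neurons, 6 were higher and 10 lower with a median of -0.04. Of 19 ion channel genes, 9 were higher and 10 lower with a median of 0.00. The 8 tested genes of hypothalamus and pituitary leaned downward, with 1 higher and 7 lower and a median of -0.25. They ran from -0.75 for Avp to 0.02 for Otp, and 4 were lower without overlap, beside 8.15% of all genes. The mean level of these 8 lay between 5.45 and 5.56 in knockout arrays and between 5.72 and 5.97 in wild-type arrays. In the inbred libraries labelled Ndel ko/+ it lay between 5.80 and 6.23. None of these lists held a gene called against wild type.

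Lists of energy metabolism leaned in opposite directions, with no gene called against wild type. All 24 tested genes of oxidative phosphorylation were lower, with a median of -0.10 beside -0.04 for all genes. Their mean level ran only between 11.32 and 11.35 in knockout arrays and between 11.37 and 11.54 in wild-type arrays, and all 24 intervals lay within a 1.5-fold change. The knockout arrays lay inside the range of all 30 P0 arrays, 11.27 to 11.54, whose highest array was wild-type replicate 3. Against the inbred libraries labelled Ndel ko/+, at 11.31 to 11.43, the median was -0.03. Uqcrq, a subunit of complex III, read 10.50, 10.57 and 10.53 in knockout brains, against 10.71, 10.64 and 10.98 in wild-type brains. Of 17 genes of hypoxia and glycolysis, 15 were higher, with a median of 0.23. Their mean level ran between 8.74 and 8.96 in knockout arrays and between 8.32 and 8.81 in wild-type arrays, so that the groups overlapped. Adm, the peptide adrenomedullin, varied most, at 5.85, 6.55 and 5.07 in knockout brains, against 4.82, 5.16 and 4.73 in wild-type brains.

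**Figure D5:**
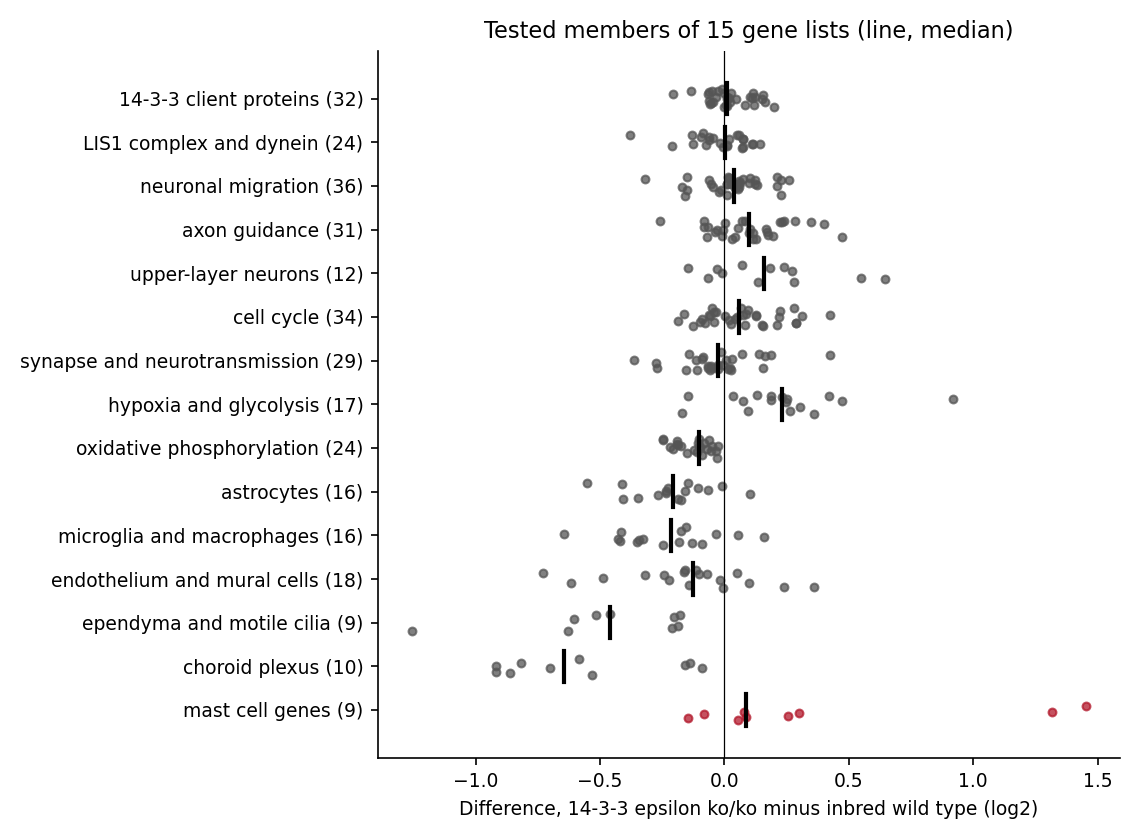
Difference in log2 units, 14-3-3 epsilon ko/ko minus inbred wild type, for each tested member of 15 gene lists, with the number of members in brackets and the median as a line; Ywhae is left out. The client, LIS1 and migration lists centre near 0, the choroid plexus list at -0.64 and the ependymal list at -0.46, and only Cma1 and Cpa3, at the right of the mast cell list, were called.

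A direct contrast with the other inbred mutant left the same 3 genes standing against both inbred groups. The 3 inbred libraries labelled Ndel ko/+ read 9.98, 9.95 and 10.25 for Ndel1 itself, which is not below the wild type, so they are named by their label only. Ywhae, Cma1 and Cpa3 were called against both inbred groups with the same sign (0.0255% of genes), and no other gene was. Cma1 read 4.40, 4.51 and 4.66 and Cpa3 3.73, 4.05 and 4.29 in the labelled libraries. Cma1 was higher in the knockout by 1.16 ± 0.17 (SE, adjusted p of 0.000527) and Cpa3 by 1.60 ± 0.21 (SE, adjusted p of 0.000201).

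Against the labelled libraries alone, 151 genes were called (1.28%), 61 higher and 90 lower in the knockout. Centring each array on its median turned that split to 93 higher and 63 lower. The labelled libraries differed from wild type at 30 genes (0.255%). Gad1, which makes the transmitter GABA, read 9.75, 9.72 and 9.82 in knockout brains, against 10.14, 10.43 and 10.54 in the labelled libraries, a difference of -0.61 with an adjusted p of 0.0108. Tac1, the substance P precursor, read 9.37, 9.04 and 9.07 in knockout brains, against 9.60, 9.90 and 9.86 in the labelled libraries, a difference of -0.62 with an adjusted p of 0.0121. Dctn6 read 9.45, 9.91 and 9.82 in the labelled libraries and was lower in the knockout, a difference of -0.64 with an adjusted p of 0.0209. Ctnnd1, p120 catenin of cell junctions, read 8.70, 8.70 and 8.65 in knockout brains, against 8.37, 8.06 and 8.25 in the labelled libraries, a difference of 0.45 with an adjusted p of 0.0286. Wild-type brains lay between the knockout and the labelled libraries in mean level for each of these 4 genes. Other called genes did not all share that order. Bcas1, of the myelin and oligodendrocyte list, averaged 6.50 in knockout brains, 7.09 in wild-type brains and 7.01 in the labelled libraries. Dynlrb2 averaged 5.36, 6.62 and 6.45. For Nrp1, of the axon guidance list, the knockout differed by -0.61 from the labelled libraries and by -0.01 from wild type. The count of 151 rested on single libraries: it was 651 without labelled replicate 1 and 8 without labelled replicate 3, whereas Ywhae, Cma1 and Cpa3 were called in every such run.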

How the data were processed

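The series holds 78 arrays in 26 groups of 3. The authors deposited log2 values, summarised per probe set with RMA per the submitters' processing notes; the sources used here do not state its version or whether ages were normalized together. The values span 2.606 to 14.24 log2 units, with no missing value. The number of arrays limits the precision. RMA matches the distributions of arrays, so a change shared by most genes would not be seen.

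Of 45101 probe sets, 34945 name 1 gene in GEO's platform annotation, 932 name several, 9160 have no gene listed and 64 are array controls. Where several probe sets name a gene, the brightest on average over the 78 arrays stood for it, which left 18193 genes. The filter asked that at least 1 P0 group average 5.253 or more, which is the median of the deposited values. limma 3.58.1 in R 4.3.3 (lmFit, and eBayes with a trend) fitted 1 mean per group to the 30 P0 arrays, without covariates, and p-values were adjusted by Benjamini-Hochberg over all 11779 genes. For a call against both inbred groups, a gene's p was the larger of its 2 p-values where the signs matched. The code was tested on simulated data. P-values measure the spread between the 3 samples within a group, shared over the 10 P0 groups, and not that of the compared arrays alone. The SD of Cma1 was 0.38 in knockout and 0.15 in wild-type arrays, and that of Cpa3 was 0.40 and 0.22.

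The named genes are Ywhae and the other 14-3-3 genes, the LIS1 and migration lists, called genes with the largest changes whose arrays do not overlap, up to 4 called members of each list, and the 8 tested genes on each side of Ywhae in RefSeq order; genes named beyond this rule were chosen after their values were seen. The members and gene lists were chosen with earlier results of these data known, so list counts are descriptions. Replicate numbers did not pair knockout with wild-type arrays: same-numbered arrays correlated at -0.06, -0.09 and -0.17 in their deviations from the group means. Knockout arrays correlated with same-numbered labelled Ndel ko/+ arrays at 0.23, 0.38 and -0.02, so a pairing is not settled there. The source of these correlations was not tested.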

Additional observations from a re-analysis of the deposited data

How the results depend on the processing

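Ywhae, Cma1 and Cpa3 kept their call against wild type in all alternatives that tested them (17 for Ywhae, 16 for each of the others), with highest adjusted p-values of 1.37e-09, 0.0407 and 0.0341 (limma). The stricter filter at 7.627 log2 units leaves out Cma1 and Cpa3 and gave 1 call, against wild type and against both inbred groups alike. The count of 3 against wild type became 13 with all 78 arrays in 1 fit (3 higher and 10 lower, among them Cdk5, Fbxo7 and Spa17) and 4 with only the 6 arrays compared, where Dynlrb2 joined. Leaving out 1 array gave 3 to 5 calls; without wild-type replicate 2 it was 5, with Fbxo7 and Rbfox2 added. Of the alternatives added after the data were seen, every probe set other than controls gave 8 calls, counted as probe sets and not as genes. They include the probe sets of Ywhae, Cma1 and Cpa3. The fit without the 3 inbred libraries labelled Ndel ko/+ and without 1 library labelled Dcx ko/Y, also added then, gave 3 genes. The mixed background A wild type in place of the inbred one, another such alternative, gave 900 genes, 584 higher and 316 lower. There strain and genotype cannot be told apart. Against the inbred libraries labelled Ndel ko/+, 151 calls became 408 with every probe set that names 1 gene, 459 with all 78 arrays, 8 with only the 9 inbred arrays, and 8 to 651 when 1 array was left out: 271, 123 and 12 without knockout replicates 1, 2 and 3, and 651, 13 and 8 without labelled replicates 1, 2 and 3. Their split of 61 higher and 90 lower became 44 and 116 after quantile normalization and 93 and 63 after centring each array on its median. Gad1 lost that call in 2 of 14 alternatives, Tac1 and Dctn6 in 4 each, Ctnnd1 in 5, Nrp1 in 6 and Bcas1 in 8. Dynlrb2 lost it in 10 of 13. Against both inbred groups, leaving out 1 array gave 3 calls in all 9 runs. With the replicate number as a block the counts were 3 against wild type, 226 against the labelled libraries and 3 against both, and 0 of 3 knockout arrays correlated best with the wild-type array of the same number. Quantile normalization and centring left the median over all genes at -0.03 and -0.06, and the counts of higher and lower members as they were in the astrocyte, microglial, vascular, ependymal, choroid plexus, oxidative phosphorylation, hypoxia and mast cell lists. No tested difference of a named gene that was called changed sign. The causes of these shifts were not tested.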

Other observations

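When every probe set other than array controls was tested (23981 probe sets, an alternative added after the data were seen), 2 probe sets beyond those of Ywhae, Cma1 and Cpa3 were called. Probe set 1449254_at, which has no gene listed in the annotation used here, read 4.95, 5.30 and 4.29 in 14-3-3 epsilon ko/ko brains, against 6.002, 6.73 and 6.40 in inbred wild-type brains. All 3 knockout arrays also lay below the other P0 arrays, which ran from 5.97 to 7.67, and the difference was -1.53 ± 0.27 (SE) with an adjusted p of 0.0267 (limma). Probe set 1429593_at of Slc38a2, a transporter of neutral amino acids, read 8.83, 9.01 and 9.03 in knockout brains, against 8.49, 8.31 and 8.21 in wild-type brains. Its difference was 0.62 ± 0.12 (SE) with an adjusted p of 0.0453 (limma), and it lay within the range of the other P0 arrays, 8.21 to 8.98, on 1 of 3 knockout arrays. Slc38a2 was not among the genes called in the main test, where the brightest probe set stood for each gene.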
